A study of Mus musculus with 96 samples.

Results

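The comparison set liver RNA from the subjective middle of the day against liver RNA from the subjective middle of the night in mice bred to delete Rbbp5 in hepatocytes. Its members were 20 of the 96 libraries of the series. Of these, 12 were midday libraries, taken at circadian time (CT) 4, 6, 8, 28, 30 and 32, and 8 were midnight libraries, taken at CT16, 18, 20 and 40. CT0 stands for subjective dawn, and each time point held 2 libraries, lettered A and B. All 20 came from LKO mice, which carry floxed Rbbp5 on both copies and 1 Cre transgene driven by the albumin promoter (alb-cre), so that the deletion is aimed at hepatocytes and the other cells of the liver keep the gene. The Flox littermates, with the same floxed alleles and no Cre, gave 12 libraries at the same midday times and 8 at the same midnight times. Every mouse was a male on the C57BL/6J background, 3 to 4 months old, fed freely, held for 2 weeks under 12 h of light and 12 h of dark and then for 24 h in darkness before the 48 h of sampling in darkness began. LKO libraries of CT42 to CT46 were left out, because their summed macrophage and myeloid markers measured 6094 to 12264 FPKM, against 44.8 to 116 FPKM in Flox libraries of the same times.

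RBBP5 is a core subunit of every SET1 and MLL type methyltransferase complex, which place methyl groups on lysine 4 of histone H3 (H3K4). The liver clock is a transcriptional loop in which CLOCK and BMAL1 (the product of Arntl) drive the Per and Cry genes through E-boxes, and the PER and CRY proteins inhibit that drive. In a second loop, REV-ERB repressors (Nr1d1, Nr1d2) and ROR activators compete at ROR elements. Feeding, glucocorticoids and body temperature add daily rhythms of metabolic, stress and heat shock genes to those of the clock. A contrast of midday with midnight is large for genes that peak near either time and smaller, for a rhythm of the same size, for genes that peak at dawn or dusk.

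Values were fragments scaled to gene length and library size (FPKM), and differences are midday minus midnight on the scale of log2(FPKM + 1), which understates changes of genes with low values. Among the LKO libraries the relative depth ran from 0.773 to 1.56 of the average, and the groups did not differ in it (midday minus midnight 0.04 on the log2 scale, exact two-sided permutation p = 0.709, adjusted 0.838 over 13 library properties). The targeted gene, Rbbp5 (mm10, plus strand of chromosome 1, 132477365 to 132505659, ENSMUSG00000026439.14), had 1.71, 2.15 and 3.92 FPKM (lowest, median and highest library) at LKO midday and 1.72, 2.20 and 3.38 FPKM at LKO midnight. The same values in Flox were 2.48, 3.45 and 4.27 FPKM at midday and 3.34, 3.64 and 3.92 FPKM at midnight. Rbbp5 did not pass the test between the phases in LKO (log2 difference 0.09, SE 0.11, adjusted p = 0.7, limma), and its LKO and Flox ranges overlapped. In 4 of the 20 LKO libraries Rbbp5 was at or above the lowest Flox value of the same phase, at 3.57, 3.92 and 2.70 FPKM in the libraries labelled LKO CT4 A, CT4 B and CT28 A and 3.38 FPKM in the library labelled LKO CT20 A. The sources used here do not say which segment is floxed, and a value over the whole gene includes the cells without Cre. The 15 hepatocyte markers summed to 29617 to 45224 FPKM at midday and 32774 to 42273 FPKM at midnight. In bulk liver, fewer cells of a type and less RNA per cell cannot be told apart.

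Of 9602 genes tested, 379 (3.95%) differed between midday and midnight in LKO liver at an adjusted p under 0.05 (limma). Of these, 85 (0.885% of those tested) were higher and 294 (3.06%) were lower at midday. The median log2 difference over all tested genes was -0.05, and 0.01 with quantile normalization. The clock gene Nr1d1 led the higher genes and the lipogenic gene Thrsp led the lower ones. Among the time points, CT40 lowered the counts most when left out, and it supplied the only midnight libraries of the second day. Without it, 5 genes were higher (0.0521%) and 18 lower (0.187%), 0.24% in all, and the estimates became those of the first day. With the day term, the 6 midday libraries of the second day then no longer bore on the difference. A lost call can come from fewer libraries or from the values of CT40, and which was not tested. This holds for every value given below without CT40. In Flox the same step gave 1189 higher and 332 lower genes, against 1011 and 384 with CT40. Each of the 379 genes kept its sign without CT40, and the median ratio of the estimate without CT40 to that with it was 0.887. The 379 genes were chosen with these libraries, which largely fixed the sign and affects the ratio. Without CT40 A the counts were 43 and 105, and without CT40 B 31 and 147. Without CT16 they were 45 and 208, without CT32 53 and 183, and without CT20 A 136 and 253.

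**Figure D1:**
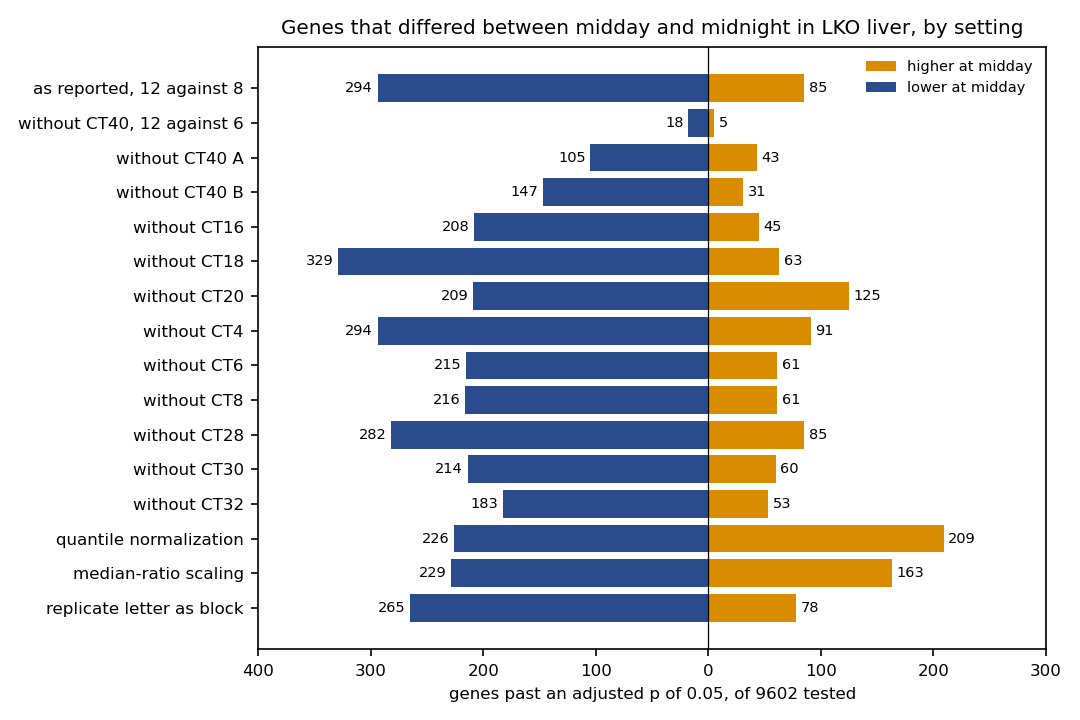
Number of genes past an adjusted p of 0.05, of 9602 tested, when time points or libraries of LKO were left out or the scaling was changed. Bars to the right of 0 count genes higher at midday and bars to the left count genes lower at midday, from 85 and 294 as reported to 5 and 18 without CT40.

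The share of higher genes among those called also depended on scaling. It was 22.4% with FPKM as deposited, 41.6% with median-ratio scaling (163 higher, 229 lower) and 48.0% with quantile normalization (209 higher, 226 lower). For 847 of the 9602 genes (8.82%), both CT40 libraries lay outside the range of the other 18 libraries, 687 above and 160 below. At the other 9 time points this held for 19 to 402 genes, with the 402 at CT16. Scgb1c1, a secretoglobin, measured 278 and 335 FPKM at CT40, at most 20.5 FPKM in the other midnight libraries and at most 215 FPKM at midday. Ptgds, a prostaglandin D synthase, measured 132 and 155 FPKM at CT40 and at most 41.8 FPKM in any other of the 20 libraries. What set CT40 apart was not tested. CT4 A, a midday library, held 234 FPKM of Ckm and 540 FPKM of Acta1, genes of skeletal muscle, against at most 0.578 and 3.00 FPKM in the others. Without that library the counts were 106 higher and 407 lower. Without the 4 libraries of high Rbbp5, a choice made after seeing the data, 182 genes were higher and 290 lower, of which 80 and 211 were among those reported. Of the 76 named genes past the threshold 10 then missed it, among them Tspan4, Gstm3, Nolc1, Mybbp1a, Plk2, Mcm6, E2f1 and Pagr1a, while Dbp (3.01) and Arntl (-1.09) passed it.

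Between 30 fits that each left out a library or a time point, 22 genes stayed past the threshold in every case, 5 higher and 17 lower. The higher genes were Nr1d1, Arrdc3, Fbxo21, Raet1d and Sp5, the last named because the count was small. Among the lower genes were Cry1, Lonrf3, Cml5, Tsc22d3, Dusp1, Cdkn1a and Tra2b. In 20 genes (0.208%) the 12 midday and 8 midnight libraries did not overlap, 2 higher (0.0208%) and 18 lower (0.187%) at midday. Both higher genes, Nr1d1 and Arrdc3, are described below with 7 of the lower ones.

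The clock genes stood at opposite ends of the day in LKO liver. Nr1d1, which encodes the repressor REV-ERB alpha (chromosome 11, 98767932 to 98775333, minus strand), measured 13.5, 44.5 and 58.0 FPKM at midday (lowest, median and highest of 12) and 1.03, 2.66 and 5.02 FPKM at midnight (of 8). Every midday library lay above every midnight library, and the log2 difference was 3.49 (SE 0.27, adjusted p = 1.7e-07). Nr1d2, which encodes REV-ERB beta, measured 4.04, 9.78 and 17.0 FPKM at midday and 1.78, 3.06 and 9.83 FPKM at midnight. It was higher at midday (1.13, SE 0.25, adjusted p = 0.0117), and 6 of the 12 midday libraries lay above every midnight library.

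Other clock genes ran the other way. Cry1, a repressor of CLOCK and BMAL1 (chromosome 10, 85131700 to 85185064, minus strand), measured 0.551, 1.14 and 2.46 FPKM at midday and 3.28, 4.36 and 8.75 FPKM at midnight. These groups did not overlap (-1.37, SE 0.16, adjusted p = 6.85e-05). Per2, the partner of Cry1 in repression, measured 1.33, 2.10 and 8.31 FPKM at midday and 3.96, 9.43 and 17.0 FPKM at midnight (-1.62, SE 0.26, adjusted p = 0.00141). All but 2 midday libraries of Per2 lay below every midnight library, and without CT40 its adjusted p was 0.0784. Nfil3, a repressor of D-box genes, was lower at midday as well (-0.84, SE 0.23, adjusted p = 0.0382, and 0.197 without CT40).

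**Figure D2:**
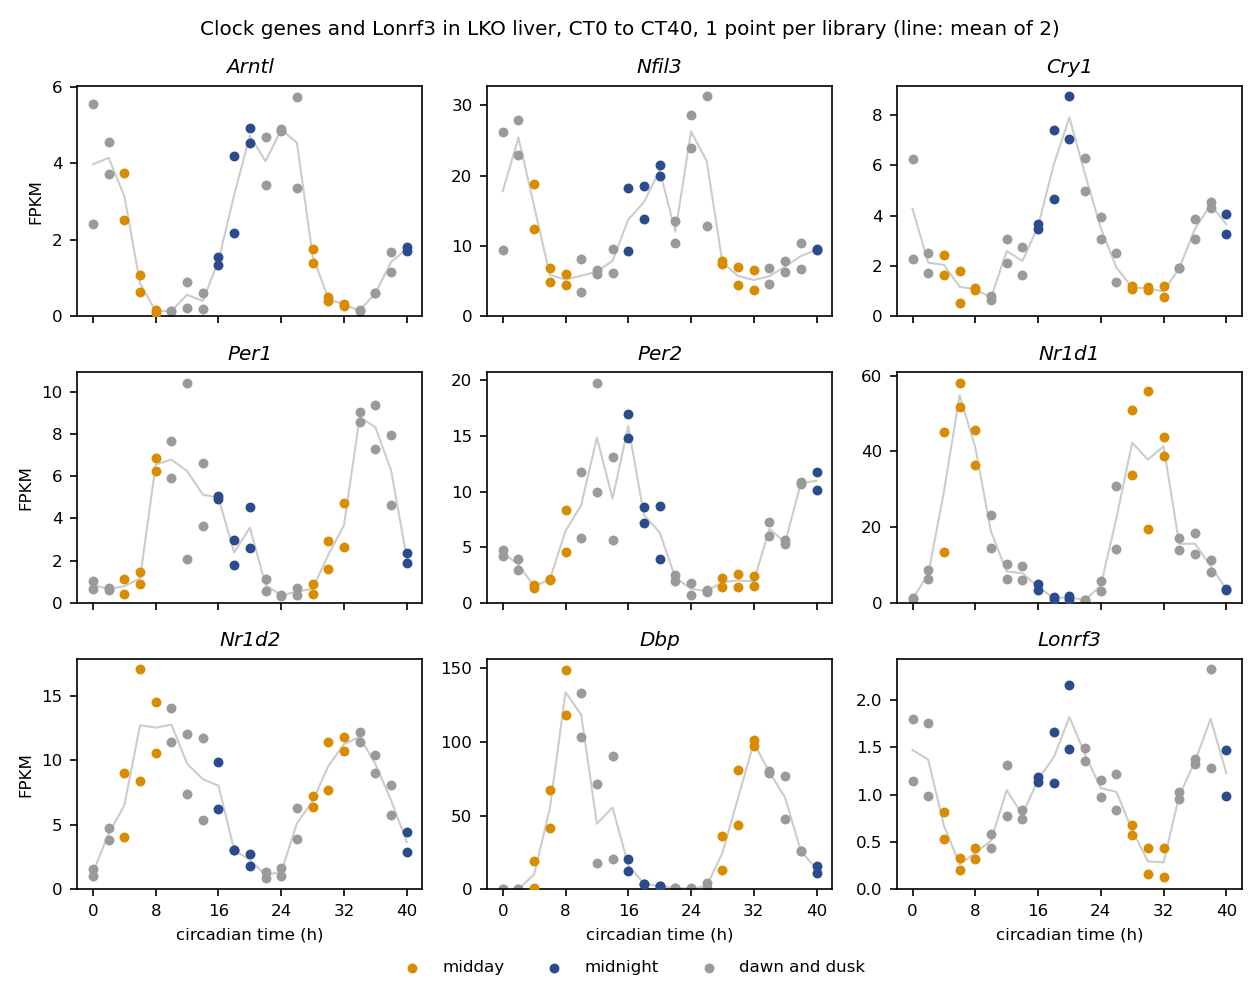
FPKM of 9 genes in each LKO library against circadian time in h, CT0 to CT40, with midday libraries in orange, midnight libraries in blue and dawn and dusk libraries in grey, and a line through the mean of 2. Nr1d1 is high at midday and near 0 at midnight, Cry1 is the reverse, and Dbp is split within midday, low at CT4 and high at CT8.

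Of the 9 tested clock repressors 2 were higher and 2 lower, against backgrounds of 0.885% and 3.06%. Clock genes of any list that did not pass included some with large rhythms that peaked between the groups compared. A cosine of 24 h fitted to the 42 LKO libraries of CT0 to CT40 placed Arntl at CT22.1 (SE 0.23 h) with an amplitude of 1.20 on the log2 scale, and its contrast did not pass (-0.84, SE 0.27, adjusted p = 0.0854). Per1 peaked at CT12.3, Per3 at CT11.8 and Ciart, a repressor of CLOCK and BMAL1, at CT11.2, with amplitudes of 1.19, 1.05 and 1.90, and their contrasts were -0.40, -0.22 and 0.43 (adjusted p = 0.538, 0.746 and 0.687). Dbp, an activator at D-boxes, had the largest amplitude of these, 3.15, with its peak at CT10.1 (SE 0.24 h). It measured 1.04, 55.7 and 149 FPKM at midday and 2.21, 7.67 and 20.4 FPKM at midnight, and its log2 difference of 2.26 did not pass (SE 0.66, adjusted p = 0.0583). The related factors Tef and Hlf had contrasts of 0.13 and -0.12 (adjusted p = 0.853 and 0.803). Among the called clock genes the fitted peaks were CT7.42 for Nr1d1, CT9.42 for Nr1d2, CT14.5 for Per2 and CT19.2 for Cry1. Npas2 and Bhlhe41 averaged under 1 FPKM and were not tested.

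Promoters of 3 genes are shown because they hold the same E-box, in Cry1 and Lonrf3 with fitted peaks at CT19.2, and in Ciart with its peak at CT11.2. Each is the 250 bases before the RefSeq start (GRCm38.p6, the assembly of mm10), read 5′ to 3′ on the gene's strand, with matches to CACGTG in capitals. Cry1 is at chr10:85185055-85185304 (minus strand), Lonrf3 at chrX:36328159-36328408 (plus strand) and Ciart at chr3:95882229-95882478 (minus strand).
Cry1: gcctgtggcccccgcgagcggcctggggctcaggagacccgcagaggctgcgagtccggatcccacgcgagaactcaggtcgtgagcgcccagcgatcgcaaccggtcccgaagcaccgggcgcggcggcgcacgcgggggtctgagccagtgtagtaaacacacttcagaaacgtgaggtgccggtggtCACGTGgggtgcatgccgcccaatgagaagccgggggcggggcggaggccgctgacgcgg
Lonrf3: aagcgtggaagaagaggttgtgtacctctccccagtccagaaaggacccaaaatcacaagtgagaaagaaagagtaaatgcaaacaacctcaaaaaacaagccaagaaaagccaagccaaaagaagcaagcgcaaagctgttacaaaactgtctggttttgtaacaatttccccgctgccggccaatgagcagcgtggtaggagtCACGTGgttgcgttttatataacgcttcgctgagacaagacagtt
Ciart: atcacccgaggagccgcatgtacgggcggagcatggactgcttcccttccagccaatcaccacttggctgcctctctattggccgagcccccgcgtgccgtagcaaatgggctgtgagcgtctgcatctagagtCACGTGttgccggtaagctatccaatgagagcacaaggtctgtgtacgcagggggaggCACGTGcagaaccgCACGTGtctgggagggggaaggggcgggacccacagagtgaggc
Cry1 and Lonrf3 each hold 1 match, from 60 to 55 and from 45 to 40 bases before the start, and Ciart holds 3. A match to CACGTG, which is its own reverse complement, stood in 7.15% of all 32851 windows of 300 bases. Of the 7339 tested genes with a window, 12.2% held a match in any window. The first share counts windows and the second genes, so they are not directly comparable. Of the 21 genes in the clock lists 16 had a window, and 5 of these held the E-box (Bhlhe41, Ciart, Cry1, Per1 and Tef). The D-box TTATGNAA, searched on both strands, stood in Per1 and Per3 (3.38% of all windows, 2.89% of tested genes with a window). The ROR element core TAGGTCA stood in Arntl and Nfil3 (2.61% and 2.53%, counted in the same ways). A match is a description of the letters and not a measured site.

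Of 29 tested clock-controlled liver genes, 3 were lower at midday and none was higher, with a median of -0.23. Over all tested genes 3.06% were lower and 0.885% higher, the background for this and the later list counts. Lonrf3, a ring finger gene (chromosome X, 36328353 to 36362341, plus strand), measured 0.130, 0.436 and 0.815 FPKM at midday and 0.981, 1.33 and 2.16 FPKM at midnight. The groups did not overlap, and the difference was -0.74 (SE 0.10, adjusted p = 5e-04). Tspan4 (-0.95, SE 0.23, adjusted p = 0.0241) and Nampt, the rate-limiting enzyme of NAD salvage (-0.79, SE 0.20, adjusted p = 0.0264), were lower too, and neither passed without CT40 (adjusted p = 0.196 and 0.288).

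The naming rule took the 14 largest differences each way, and beside Nr1d1 and Nr1d2 the positive ones ran from 0.93 to 1.76 on the log2 scale. Arrdc3, an arrestin-related regulator of receptor trafficking (chromosome 13, 80883384 to 80896042, plus strand), measured 6.75, 14.7 and 43.3 FPKM at midday and 3.37, 3.89 and 4.63 FPKM at midnight (1.76, SE 0.23, adjusted p = 2.31e-04). No midday library of Arrdc3 came down to a midnight value. Fbxo21, a substrate receptor of a ubiquitin ligase, measured 14.4, 21.6 and 38.9 FPKM at midday and 3.50, 7.72 and 15.9 FPKM at midnight (1.36, SE 0.22, adjusted p = 0.00141). Raet1d, a ligand of the NKG2D receptor, was higher by 1.08 (SE 0.16, adjusted p = 8.47e-04). Arrdc3, Fbxo21 and Raet1d kept an adjusted p of 0.00617, 0.029 and 0.0378 without CT40.

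Hsd3b5, a steroid dehydrogenase of male liver that depends on growth hormone pulses, measured 56.9, 85.4 and 149 FPKM at midday and 6.35, 40.7 and 63.0 FPKM at midnight (1.62, SE 0.35, adjusted p = 0.0117). It was the 1 of 19 tested genes of the growth hormone axis that passed. Npr2, a natriuretic peptide receptor, was higher at midday (1.02, SE 0.17, adjusted p = 0.00157), with 0.673 and 0.569 FPKM at CT40 against a midday median of 4.79 FPKM. Phospho1, Gpcpd1, Klhdc7a, Gpr146, C77080 and Susd4 were higher by 0.93 to 1.40. Without CT40 the adjusted p of these 6, of Hsd3b5 and of Npr2 ran from 0.0651 (Npr2) to 0.488 (Susd4).

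Among the lower genes Thrsp, a lipogenic gene induced by feeding and thyroid hormone, had the largest difference. It measured 54.7, 129 and 269 FPKM at midday and 194, 609 and 1019 FPKM at midnight (-2.23, SE 0.33, adjusted p = 8.23e-04). CT20 A, at 194 FPKM, was the only midnight library within the midday range, and without CT40 the adjusted p was 0.0501. Cml5, a gene of the N-acetyltransferase family, measured 3.76, 16.3 and 29.2 FPKM at midday and 38.7, 58.8 and 94.9 FPKM at midnight, with no overlap (-1.85, SE 0.28, adjusted p = 9.6e-04). Ppp1r3b, which targets a phosphatase to glycogen, measured 7.70, 17.7 and 41.5 FPKM at midday and 28.3, 51.5 and 103 FPKM at midnight (-1.54, SE 0.28, adjusted p = 0.00328, and 0.0822 without CT40). For several other genes the highest values of all 20 libraries were those of CT40. Alpl, an alkaline phosphatase, measured 80.3 and 68.5 FPKM at CT40, 8.89 to 15.7 FPKM in the other midnight libraries and 2.75 to 19.96 FPKM at midday (-1.62, SE 0.29, adjusted p = 0.0029, and -1.09 with adjusted p = 0.163 without CT40). Saa3, an acute phase protein, measured 279 and 255 FPKM at CT40, 15.9 to 55.2 FPKM in the other midnight libraries and 2.13 to 89.6 FPKM at midday (-1.82, SE 0.37, adjusted p = 0.00759, and -1.64 with adjusted p = 0.184 without CT40). Wfdc12 measured 27.8 and 34.8 FPKM at CT40 against a highest midday value of 8.42 FPKM (-1.43, SE 0.30, adjusted p = 0.0104, and -0.91 with adjusted p = 0.334 without CT40). Chrna4, a nicotinic receptor subunit, had its highest values elsewhere and differences of -1.65 and -1.31 on the first and second day, with 0.0978, 1.10 and 4.48 FPKM at midday and 3.09, 5.21 and 17.3 FPKM at midnight (-1.53, SE 0.33, adjusted p = 0.0117, and -1.65 with adjusted p = 0.119 without CT40).

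**Figure D3:**
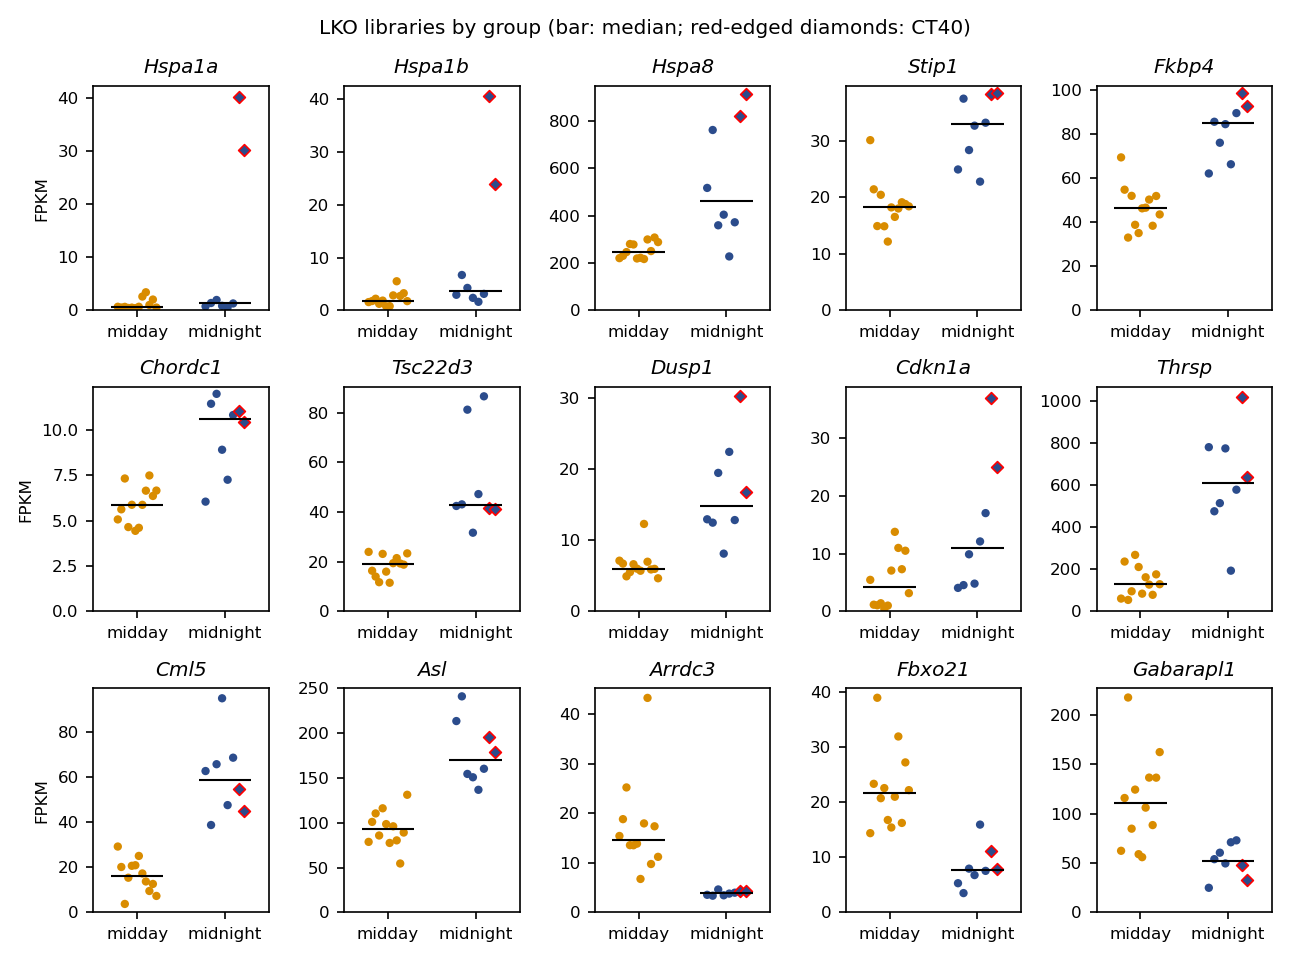
FPKM of 15 genes in each LKO library, midday at the left and midnight at the right, with a bar at the group median and CT40 as red-edged diamonds. Tsc22d3, Cml5, Asl and Arrdc3 show groups that do not overlap, while the high midnight values of Hspa1a and Hspa1b are those of CT40.

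Among the 25 tested cytosolic heat shock chaperones 11 were lower at midday and none was higher, against a background of 3.06% lower. Of the 25 differences 23 were negative, against 5712 of 9602 over all genes. Their median was -0.54 on the log2 scale, against -0.05 over all genes. Without CT40 none of the 25 passed (limma), and the median was -0.42. At an unadjusted p under 0.05, 11 were then lower, against 828 of 9602 genes in either direction. Fkbp4, a cochaperone of HSP90 and steroid receptors (chromosome 6, 128429735 to 128438677, minus strand), measured 33.1, 46.5 and 69.6 FPKM at midday and 62.2, 85.2 and 98.7 FPKM at midnight (-0.84, SE 0.13, adjusted p = 0.00141). A sole midday library reached the lowest midnight value. Stip1, which joins HSP70 to HSP90, was lower by a like amount (-0.79, SE 0.14, adjusted p = 0.0029), as was Chordc1, an HSP90 cochaperone (-0.67, SE 0.12, adjusted p = 0.00301). Hspa8, the constitutive HSP70 (chromosome 9, 40800984 to 40810087, plus strand), measured 217, 248 and 308 FPKM at midday and 228, 460 and 912 FPKM at midnight (-1.07, SE 0.19, adjusted p = 0.003).

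Of the inducible HSP70 genes Hspa1a and Hspa1b, the test between days called Hspa1a alone. Hspa1a measured 0.438, 0.676 and 3.42 FPKM at midday, 0.570 to 1.97 FPKM at CT16 to CT20, and 40.3 and 30.3 FPKM at CT40 (-1.57, SE 0.39, adjusted p = 0.0284, and 0.611 without CT40). Its log2 difference was -0.44 on the first day and -3.83 on the second, a change of -3.40 (SE 0.38, adjusted p = 1.06e-04 for the difference between days). In the dusk libraries, which the contrast did not use, Hspa1a measured 0.399 to 3.73 FPKM at CT10 to CT14, then 9.30 and 10.3 FPKM at CT34, 11.3 and 18.5 FPKM at CT36 and 82.5 and 54.4 FPKM at CT38. Hspa1b measured 0.775, 1.82 and 5.52 FPKM at midday and 1.63, 3.70 and 40.5 FPKM at midnight (-1.56, SE 0.33, adjusted p = 0.0104, and 0.334 without CT40). The log2 difference of Hspa1b was -0.75 on the first day and -3.18 on the second, a change that did not pass. Both genes are near-identical copies, and the sources used here do not say how their shared reads were divided. Their promoter windows share 296 of 300 bases.

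Promoters of 3 chaperone genes are shown with the heat shock element pair GAANNTTC, the core to which heat shock factors bind, in capitals. The conventions are those given for the E-boxes. Hspa1a is at chr17:34972157-34972406 (minus strand), Hspb1, a small heat shock protein, at chr5:135887669-135887918 (plus strand) and Fkbp4 at chr6:128438657-128438906 (minus strand).
Hspa1a: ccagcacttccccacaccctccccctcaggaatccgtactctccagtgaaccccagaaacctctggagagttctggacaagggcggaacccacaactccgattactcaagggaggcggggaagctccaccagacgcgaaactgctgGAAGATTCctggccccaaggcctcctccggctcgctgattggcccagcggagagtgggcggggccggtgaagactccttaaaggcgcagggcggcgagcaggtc
Hspb1: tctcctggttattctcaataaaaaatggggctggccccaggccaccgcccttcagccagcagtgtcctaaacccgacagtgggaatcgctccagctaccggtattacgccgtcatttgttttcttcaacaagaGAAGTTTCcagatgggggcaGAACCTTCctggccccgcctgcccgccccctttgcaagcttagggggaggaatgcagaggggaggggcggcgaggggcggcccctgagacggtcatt
Fkbp4: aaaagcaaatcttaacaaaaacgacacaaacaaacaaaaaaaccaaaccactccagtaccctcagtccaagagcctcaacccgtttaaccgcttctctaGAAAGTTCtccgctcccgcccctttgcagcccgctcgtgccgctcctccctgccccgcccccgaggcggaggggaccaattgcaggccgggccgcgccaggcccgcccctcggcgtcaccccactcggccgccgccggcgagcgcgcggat
Hspa1a and Fkbp4 hold 1 pair each, and Hspb1 holds 2, from 117 to 110 and from 97 to 90 bases before the start. A pair, which is its own reverse complement, stood in 7.86% of all windows. Counted by gene, it stood in 7.11% of tested genes with a window and in 11 of the 21 listed chaperones with a window. Among the 9 chaperones with a window that were lower at midday, 7 held it. Hspb1 was lower at midday by a narrow margin (-1.15, SE 0.32, adjusted p = 0.0499). Its highest value among all 20 libraries, 169 FPKM, was at midday in CT4 A, the library with muscle transcripts. The midday median was 28.6 FPKM, and the libraries of CT16 to CT20 measured 49.2 to 119 FPKM.

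Genes that respond to glucocorticoids, growth signals and damage were lower at midday where they differed. Of 17 tested glucocorticoid-responsive genes 3 were lower and none was higher, and the same 3, Tsc22d3, Dusp1 and Cdkn1a, passed without CT40. Tsc22d3 (chromosome X, 140539528 to 140600659, minus strand), which encodes the glucocorticoid-induced leucine zipper, measured 11.5, 19.1 and 24.0 FPKM at midday and 31.7, 42.8 and 86.6 FPKM at midnight, with no overlap (-1.41, SE 0.19, adjusted p = 4.15e-04). Dusp1, a phosphatase of MAP kinases, measured 4.65, 5.99 and 12.3 FPKM at midday and 8.11, 14.9 and 30.2 FPKM at midnight (-1.26, SE 0.18, adjusted p = 6.71e-04). All but 1 midday library of Dusp1 lay below midnight. Cdkn1a, which encodes the cell cycle inhibitor p21 (chromosome 17, 29090976 to 29100727, plus strand), measured 0.461, 4.32 and 13.8 FPKM at midday, 4.08 to 17.0 FPKM at CT16 to CT20, and 37.1 and 25.1 FPKM at CT40. Its difference was -1.82 (SE 0.29, adjusted p = 0.00153, and 0.0454 without CT40), equal in direction on the days (-1.84 and -1.79) although the levels of the second day were higher. The midnight side of the second day was CT40 alone. In the dusk libraries Cdkn1a measured 1.18 to 12.3 FPKM at CT10 to CT14 and 8.24 to 66.7 FPKM at CT34 to CT38. Fkbp5, another glucocorticoid target, did not pass (-0.52, SE 0.20, adjusted p = 0.16).

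Immediate early genes had 6 lower and none higher of 13 tested, with a median of -0.37. They included Jun, a subunit of AP-1 (-0.76, SE 0.15, adjusted p = 0.00486), Atf3, a stress-induced repressor (-0.90, SE 0.15, adjusted p = 0.00157), and Btg2, an antiproliferative gene (-0.95, SE 0.20, adjusted p = 0.0104). Without CT40 only Dusp1 of this list passed. Of 16 tested p53 and DNA damage genes 5 were lower and none was higher (median -0.48), among them Plk2 (-0.53, SE 0.13, adjusted p = 0.0211) and Gadd45b (-0.89, SE 0.23, adjusted p = 0.0309). Cell cycle genes had 4 lower of 14 tested and none higher, namely Cdkn1a, the helicase subunit Mcm6 (-0.62, SE 0.15, adjusted p = 0.0192), the transcription factor E2f1 (-0.41, SE 0.10, adjusted p = 0.026) and the D cyclin Ccnd3 (-0.45, SE 0.12, adjusted p = 0.0384). These inhibit or promote division, and Cdkn1a and Dusp1 each stand in more than 1 of the lists. In both lists Cdkn1a alone passed without CT40. With quantile normalization, and also with median-ratio scaling, 5 immediate early, 4 p53 and DNA damage and 3 cell cycle genes were lower. Of 14 tested genes of the integrated stress response, Trib3, a pseudokinase, was higher at midday (0.87, SE 0.20, adjusted p = 0.0142), while Atf3 and Gdf15, a stress-induced secreted factor, were lower.

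Gdf15 had a sharper split than its list. It measured 4.15, 7.94 and 12.3 FPKM at midday and 12.0, 14.7 and 23.0 FPKM at midnight (-1.04, SE 0.19, adjusted p = 0.0029). All but 1 midday library lay below midnight, and the first and second day gave -1.05 and -1.04. Without CT40 the adjusted p was 0.0784.

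Metabolic genes differed in small numbers. Of 23 tested genes of fatty acid and triglyceride synthesis 4 were lower at midday and none was higher. Beside Thrsp these were Elovl6, an elongase (-0.96, SE 0.22, adjusted p = 0.0143), Fasn, the fatty acid synthase (-1.01, SE 0.27, adjusted p = 0.039), and Agpat2, an acyltransferase (-0.48, SE 0.13, adjusted p = 0.0351). With quantile normalization or median-ratio scaling the list had 2 lower genes in each case. Fasn measured 15.7, 23.5 and 70.4 FPKM at midday and 21.6, 58.4 and 74.7 FPKM at midnight, ranges that overlapped almost wholly. Glycolysis and glycogen genes had 3 lower of 19, among them Ppp1r3b and the phosphofructokinase Pfkl (-0.43, SE 0.10, adjusted p = 0.016). With median-ratio scaling 2 were lower, and with quantile normalization 3 were lower and 1 was higher. Of 19 genes of gluconeogenesis and fasting, 2 were lower, the kinase Sik1 (-1.24, SE 0.23, adjusted p = 0.00328) and the mTORC1 inhibitor Ddit4 (-1.25, SE 0.24, adjusted p = 0.00473). None of these lists kept a call without CT40 (unadjusted p under 0.05 for 6 lower and 1 higher lipogenic genes, 4 lower glycolytic genes and 6 lower fasting genes). In that fit 828 of all 9602 genes had an unadjusted p under 0.05 (limma).

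Asl, argininosuccinate lyase of the urea cycle (chromosome 5, 130011258 to 130029247, minus strand), was the 1 gene called among 30 for the urea cycle and the breakdown of amino acids. It measured 54.5, 92.5 and 131 FPKM at midday and 137, 170 and 241 FPKM at midnight, with no overlap (-0.92, SE 0.15, adjusted p = 0.00157, and 0.0784 without CT40). Bile acid genes leaned to midday. Of 24 tested differences 21 were positive, against 3888 of 9602 over all genes, and the median was 0.27. Of the 24 genes 2 passed, the hepatic uptake carrier Slco1b2 (0.89, SE 0.20, adjusted p = 0.0125) and the synthetic enzyme Hsd3b7 (0.81, SE 0.20, adjusted p = 0.0211). Hsd3b7 measured 128, 162 and 197 FPKM at midday and 41.6, 113 and 195 FPKM at midnight, and its lowest midnight values, 45.1 and 41.6 FPKM, were those of CT40. Autophagy genes had 2 higher and none lower of 27, the ATG8 family member Gabarapl1 (1.08, SE 0.26, adjusted p = 0.0211) and the initiating kinase Ulk1 (0.81, SE 0.14, adjusted p = 0.0029). Gabarapl1 measured 56.0, 111 and 218 FPKM at midday and 24.9, 51.8 and 73.0 FPKM at midnight. Without CT40 Ulk1 had an adjusted p of 0.0854 and the other 3 of these genes 0.325 to 0.594.

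Of 20 tested genes of the NRF2 and antioxidant list 3 were lower at midday and none was higher, against backgrounds of 3.06% and 0.885%. They were the glutathione transferases Gsta1 (-1.21, SE 0.27, adjusted p = 0.0125) and Gstm3 (-0.86, SE 0.23, adjusted p = 0.0327) and the pentose phosphate enzyme G6pdx (-0.49, SE 0.11, adjusted p = 0.0117). Gsta1 measured 7.13, 19.9 and 32.1 FPKM at midday and 14.4, 41.01 and 76.0 FPKM at midnight, with 76.0 and 60.3 FPKM at CT40. Both transferases were also the only genes called among 30 of xenobiotic metabolism. Glutathione transferases have close paralogs, so their values may share reads. Without CT40 the adjusted p of the 3 genes ran from 0.213 to 0.314.

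Among genes of RNA processing, 3 splicing factors of 35 tested were lower at midday and 1 was higher. Tra2b and Tra2a, which encode related splicing activators, had groups that did not overlap. Tra2b measured 6.39, 8.45 and 9.53 FPKM at midday and 10.4, 11.3 and 14.99 FPKM at midnight (-0.50, SE 0.08, adjusted p = 0.00157, and 0.0454 without CT40). Tra2a measured 3.09, 5.37 and 8.53 FPKM at midday and 9.07, 11.03 and 14.8 FPKM at midnight (-0.97, SE 0.18, adjusted p = 0.00337, and 0.119 without CT40). Srsf3 was lower (-0.61, SE 0.12, adjusted p = 0.00675) and Srsf5 higher (0.53, SE 0.15, adjusted p = 0.0475), and both are SR proteins. Ribosome biogenesis had 3 lower of 26 and none higher, namely Nop16 (-0.53, SE 0.11, adjusted p = 0.0104), Nolc1 (-0.50, SE 0.12, adjusted p = 0.0195) and Mybbp1a (-0.50, SE 0.12, adjusted p = 0.0219). With quantile normalization or median-ratio scaling that list had 2 lower genes in each case. Of 17 tested genes of the H3K4 methyltransferase complexes, to which RBBP5 belongs, Men1, which encodes menin (-0.31, SE 0.08, adjusted p = 0.0389), and Pagr1a (-0.38, SE 0.10, adjusted p = 0.0376) were lower, and neither was lower with median-ratio scaling or quantile normalization. Cirbp, a cold-inducible RNA-binding protein, was higher (0.70, SE 0.17, adjusted p = 0.0195), while its relative Rbm3 had a difference of -0.01 (adjusted p = 0.983).

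The 75 cytosolic ribosomal protein genes were nearly all on the same side, with 74 negative differences and a median of -0.37, yet none passed (limma, 40 lower at an unadjusted p under 0.05). Over all genes 5712 of 9602 differences were negative, and 1786 genes had an unadjusted p under 0.05 in either direction. Rpl6, which had the smallest p, measured 91.5, 135 and 167 FPKM at midday and 124, 153 and 231 FPKM at midnight (-0.40, SE 0.11, adjusted p = 0.0533). Its highest values, 222 and 231 FPKM, were those of CT40. Without CT40 the list's median was -0.29, with 1 gene lower at an unadjusted p under 0.05. With quantile normalization the median was -0.25 and with median-ratio scaling -0.31. The respiratory chain had a median of -0.22 over 32 genes and 1 call, Cycs, which encodes cytochrome c (-0.45, SE 0.12, adjusted p = 0.0389), which did not pass under either of these scalings. The 31 proteasome genes had a median of 0.04 and no call (limma, none at an unadjusted p under 0.05).

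**Figure D4:**
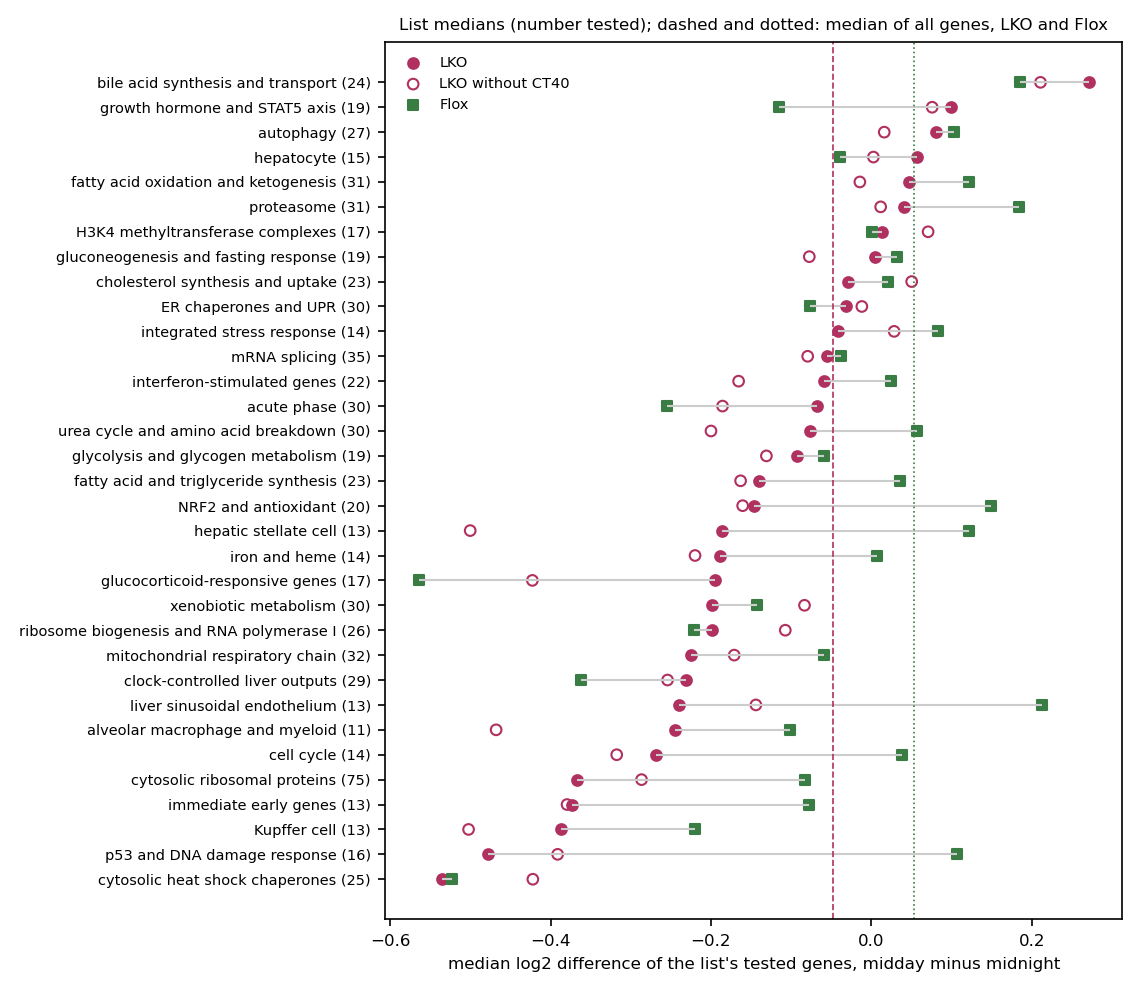
Median log2 difference, midday minus midnight, of the tested genes of 33 lists with at least 10 of them (number in parentheses), with LKO as filled circles, LKO without CT40 as open circles and Flox as squares. Dashed and dotted lines mark the medians of all genes. The heat shock list is the lowest in LKO at -0.54 and stands at -0.52 in Flox, while the p53 list stands at -0.48 in LKO and 0.11 in Flox.

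No gene passed in the lists of cholesterol synthesis, fatty acid oxidation, the ER unfolded protein response, interferon-stimulated genes or iron handling (limma). At an unadjusted p under 0.05 (limma) these lists had 4 of 23, 5 of 31, 2 of 30, 2 of 22 and 3 of 14 genes. Over all genes it was 1786 of 9602. Without the 4 libraries of high Rbbp5, Pmvk (-0.99), Lss (-0.72) and Mvd (-1.10), enzymes of cholesterol synthesis, were among the genes that passed as lower at midday, as were Creld2 (-1.02) and Syvn1 (-0.51) of the ER list. The acute phase list of 30 had only Saa3. Markers of other liver cells did not pass either, although their differences were mostly negative. Of 13 tested Kupffer cell markers 13 were negative (median -0.39), of 13 sinusoidal endothelial markers 12 (median -0.24) and of 8 neutrophil and erythroid markers 7 (median -0.85). Over all genes 5712 of 9602 differences were negative. Sinusoidal endothelial markers summed to 33.9, 55.9 and 77.3 FPKM at midday (lowest, median and highest library) and 45.3, 72.1 and 149 FPKM at midnight, the smallest p of the 13 library properties (exact two-sided permutation p = 0.0459, adjusted 0.418). Kupffer cell markers summed to 103, 173 and 438 FPKM at midday and 163, 213 and 321 FPKM at midnight (p = 0.218, adjusted 0.569). No defining marker of either type was at 0 in all libraries of a group. Summed markers of alveolar macrophages and other myeloid cells, which set CT42 to CT46 apart, stayed between 37.5 and 184 FPKM at midday and 70.7 and 133 FPKM at midnight. The part of these cells in the called genes was not tested. The ribosomal RNA precursor Rn45s spanned 607 to 6922 FPKM at midday and 1327 to 4351 FPKM at midnight (p = 0.888, adjusted 0.888), and with its log2 value as a covariate 110 genes were higher and 467 lower.

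Each of the 379 called genes had the same sign on the first day (6 libraries against 6) and on the second (6 against 2). The genes were chosen with the same libraries, so this agreement was largely fixed by the choice. A test of the difference between the days called 5 genes (0.0521%), all with a more negative difference on the second day. They were Hspa1a, Tax1bp3, Cyp2c37, Camk2b and Vpreb3. Of the 9602 tested genes 512 had an unadjusted p under 0.05 (limma), where a share of 0.05 arises without any difference. The dawn and dusk libraries place the called genes in the course of the day. Among the 294 genes lower at midday, dawn and dusk means both lay between the midday and midnight means for 164. The dusk mean lay above both for 90 and the dawn mean lay below both for 64. Over all 9602 tested genes these counts were 1955, 4481 and 4993. The genes were chosen for a wide gap between midday and midnight, which favours means in between and fewer outside. For 229 of the 294 the dusk mean exceeded the dawn mean, a share like that of all tested genes (7284 of 9602). Among the 85 higher genes 55 had both means in between, a count that the choice of genes favoured too. The dawn mean exceeded the dusk mean for 41 of the 85, against 2317 of 9602 over all genes. The fitted peaks had a median of CT5.99 for the higher genes and CT16.7 for the lower ones, which the choice of genes fixed, since the fit used the same libraries.

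The same contrast in Flox littermates called 1395 genes (14.5%), 1011 higher (10.5%) and 384 lower (4%) at midday. With median-ratio scaling the Flox counts were 584 and 582, with quantile normalization 693 and 614, and without CT6 they were 615 and 250. Of the 379 genes called in LKO, 204 were called in the same direction in Flox, which is 53.8% of the LKO genes and 14.6% of the Flox genes, and 1 was called in the opposite direction. For the 294 lower genes of LKO the median was -0.53 in LKO and -0.29 in Flox, and 266 were negative in Flox. For the 85 higher genes it was 0.65 in LKO and 0.55 in Flox. For the 1011 higher genes of Flox the median was 0.17 in LKO and 0.34 in Flox, and 875 were positive in LKO. For the 384 lower genes of Flox it was -0.41 in LKO and -0.45 in Flox, and 375 were negative in LKO. Genes were chosen in the genotype whose median is then larger by that choice, so these medians measure no change of size. The spread between libraries was wider in LKO, with a median residual SD of 0.29 against 0.21 in Flox and a larger value in LKO for 80.3% of genes.

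**Figure D5:**
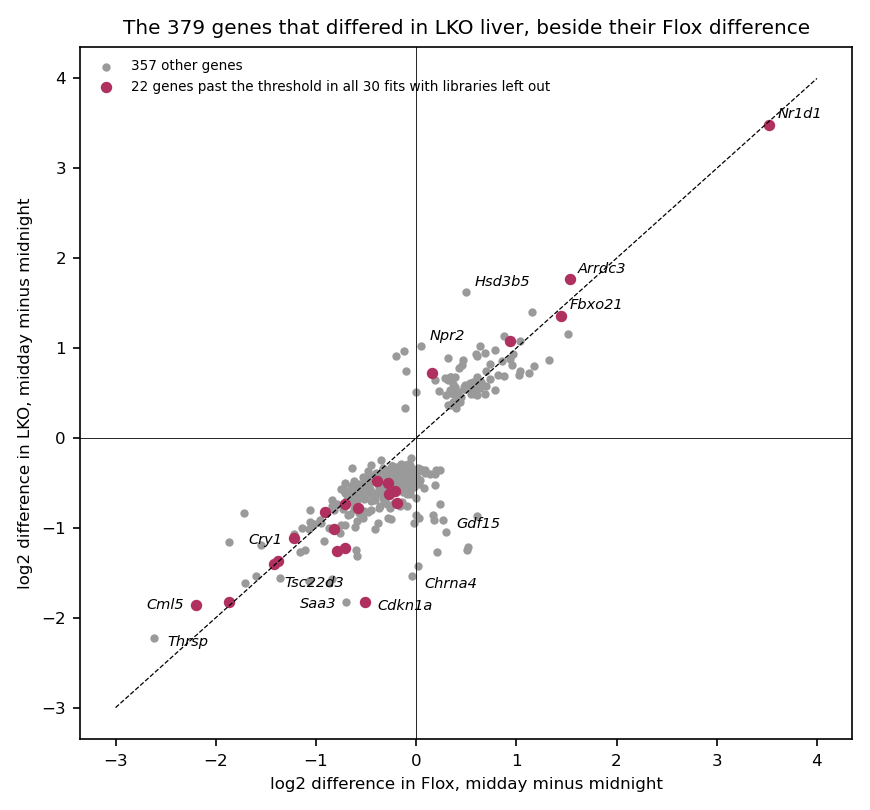
Log2 difference, midday minus midnight, in LKO (vertical) against Flox (horizontal) for the 379 genes called in LKO, with the 22 that passed in all 30 fits with libraries left out in colour and the line of equal values dashed. Nr1d1, Cry1 and Tsc22d3 lie near the line, and Cdkn1a, Chrna4 and Gdf15 lie well below it.

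A direct test of the difference between genotypes called none of 9602 genes (limma), with 897 at an unadjusted p under 0.05, 18 at an adjusted p under 0.1 and a lowest adjusted p of 0.0763. With 1 mean per genotype and time over 84 libraries it called 6 higher and 100 lower, and without CT18 1 higher and 40 lower. For no clock gene did the test between genotypes pass, and for some the estimates lay close together. Nr1d1 differed by 3.49 in LKO and 3.53 in Flox and Cry1 by -1.37 and -1.38, and the differences between genotypes were -0.04 (SE 0.50) and 0.02 (SE 0.32), with adjusted p of 0.998 and 0.999. Others were farther apart, with Per1 at -0.40 in LKO and -0.78 in Flox (difference 0.38, SE 0.41, adjusted p = 0.85), Arntl at -0.84 and -0.51 (-0.33, SE 0.48, adjusted p = 0.894) and Dbp at 2.26 and 1.64 (0.63, SE 1.20, adjusted p = 0.93). Tsc22d3 (-1.41 in LKO, -1.42 in Flox) and Fbxo21 (1.36 in LKO, 1.45 in Flox) were as close. The 4 smallest p-values belonged to Gdf15, Tmem141, Gstm3 and Slc51b, whose differences were negative in LKO and positive in Flox. For Gdf15 they were -1.04 in LKO and 0.30 in Flox (adjusted p = 0.0763), with 6.53 and 4.39 FPKM as the Flox medians of midday and midnight. For Tmem141 they were -0.86 and 0.17 (adjusted p = 0.0788), for Gstm3 -0.86 and 0.60 (adjusted p = 0.0788) and for Slc51b, a subunit of a bile acid exporter, -1.27 and 0.21 (adjusted p = 0.0926). Cdkn1a (-1.82 in LKO, -0.51 in Flox, adjusted p = 0.567) and Chrna4 (-1.53 in LKO, -0.04 in Flox, adjusted p = 0.191) did not pass this test.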

How the data were processed

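Liver RNA was measured in 96 libraries, each from a separate mouse, as stranded mRNA-seq per the labels. The authors deposited 1 table of normalized values with 13094 entries, read here as FPKM from its values and from the Cufflinks step named in the submitters' processing notes. Those notes name FastQC, Trimmomatic, HISAT2, Cufflinks and mm10, and the sources used here give no versions. Of the entries, 65 repeat a symbol and 21 have a number in place of one. Absolute depth is unknown, and precision was judged from the spread between libraries. Relative depth was read from the steps between low values, which were clear in 774 of 780 pairs of libraries.

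Values were taken as log2(FPKM + 1). Entries averaging 1 FPKM or more over the 84 libraries of CT0 to CT40, 9602 in number, were tested with limma 3.58.1 (R 4.3.3, trend and robust moderation, two-sided) and Benjamini-Hochberg adjustment at 0.05. The fit had a term for day. The same fit was made for Flox, and differences between days and between genotypes were tested as interaction terms. Library properties were compared with exact permutation tests over 125970 regroupings. The fits were tested on simulated data.

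Named genes were the 14 largest differences each way that passed, had 1 sign across the days and averaged 2 FPKM or more in a group (1 unnamed gene model was passed over each way), all clock genes, up to 4 members of each list with the smallest p, and the smallest p-values of the tests of differences (up to 10 that passed, or 4 where none did). Some genes that this rule takes are not reported here. Other genes named were chosen after their values were seen. The members and lists were chosen with earlier results of these data known. Positions are from GENCODE M21, which matched 179 of 182 named genes, and promoters from RefSeq. The alternatives tried were another pseudocount, filter, scaling and moderation, single days and letters, a replicate block, Rn45s as a covariate, added time points, leaving out each library and time point, and, added after seeing the data, leaving out the LKO libraries whose Rbbp5 reached Flox values.

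The letters A and B showed no consistent pairing of the libraries across time points. The labels tie them to no shared animal or day, and the A minus B differences of 2 time points correlated with a median of 0.02 over 45 pairs. Single correlations ran from -0.681 to 0.687, and 19 were over 0.1.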

Additional observations from a re-analysis of the deposited data

Results flagged for a closer look

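In 182 groups of 8 midnight libraries, 1 gene each, 5 held a library far from the others, where chance gives about 1 in 20 groups. Thrsp was lowest in CT20 A, at 194 FPKM. Atg2a, an autophagy gene, was highest in the same library, at 7.09 FPKM. Pagr1a was highest in CT16 B at 17.6 FPKM, the macrophage complement gene C1qb was highest in CT40 A at 51.4 FPKM, and Spp1, which encodes osteopontin, was lowest in CT18 A at 24.9 FPKM.

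The phase difference of 5 genes changed between the days in LKO (limma, adjusted over 9602 genes). The second day minus the first was -3.40 for Hspa1a (adjusted p = 1.06e-04), -2.29 for Tax1bp3 (adjusted p = 1.06e-04), -3.12 for Cyp2c37 (adjusted p = 0.0201), -2.05 for Camk2b (adjusted p = 0.0287) and -2.41 for Vpreb3 (adjusted p = 0.031). The second day had only the CT40 libraries at midnight, so day and time point cannot be told apart there.

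In libraries that the contrast did not use, summed macrophage and myeloid markers were at least 6094 FPKM in each of 6 LKO libraries of CT42 to CT46, against at most 116 FPKM in Flox at those times.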

How the results depend on the processing

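Of 180 named genes with an LKO difference, none of the 76 past the threshold changed sign under a setting, and 24 of the others did. The 76 had passed in the same libraries, so a kept sign was largely fixed by that choice. Counts are genes higher and lower at midday. For LKO (85 and 294) they were 167 lower with a mean of at least 5 FPKM, 163 higher with median-ratio scaling, 209 higher with quantile normalization, 56 and 150 with no day term, 2 and 8 on the first day, 28 and 126 on the second, 1 and 5 with letter A, 4 and 6 with letter B, 467 lower with Rn45s as a covariate, 182 higher without the 4 libraries of high Rbbp5, 322 and 1618 with CT42 and CT44 added, and 391 and 1216 with 1 mean per genotype and time over 84 libraries. For Flox (1011 and 384) they were 563 and 222 with at least 5 FPKM, 584 and 582 with median-ratio scaling, 614 lower with quantile normalization, 95 and 68 on the second day, 30 and 28 with letter A, 37 and 28 with letter B, 1622 higher with CT42 and CT44 added and 569 higher with the 84 libraries. For the LKO minus Flox difference (0 and 0) they were 3 lower with at least 5 FPKM, 3 and 51 on the second day, 20 and 1101 with CT42 and CT44 added, and 6 and 100 with the 84 libraries. For the difference between days (0 and 5) they were 3 lower with a pseudocount of 0.1, 2 and 30 with no filter, 2 lower with at least 5 FPKM, 1 higher with median-ratio scaling, 9 lower with quantile normalization, 1 lower with either letter alone, 1 and 9 with Rn45s, 3 lower without the 4 libraries of high Rbbp5, 5 and 62 with CT42 and CT44 added, 7 and 49 with the 84 libraries and 1 higher without trend or robust moderation. The causes were not tested.

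Leaving out a library or time point gave 5 to 136 higher and 18 to 407 lower genes in LKO, 615 to 1368 and 250 to 471 in Flox, 0 to 1 and 0 to 40 for the difference between genotypes, and 0 to 1 and 2 to 9 for that between days. The replicate block gave 78 higher and 265 lower genes in LKO, of which 77 and 263 were among those reported, and 747 and 265 in Flox. The letters share only a label.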
